A study of Mus musculus with 8 samples.

Results

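The genes described here encode proteins of the synapse: 46 genes of synaptic adhesion, of the postsynaptic scaffold and of synaptic vesicle release. They were listed by gene function, but the list was chosen with earlier results of these data known. All 46 were found among the 22367 protein-coding genes of the GENCODE vM1 annotation of the mouse mm9 genome. They were 10 adhesion genes, 15 genes of the postsynaptic scaffold and its kinase, 10 vesicle genes, 6 genes of the fusion machinery and 5 genes of the active zone.

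The data were chromatin immunoprecipitation and sequencing (ChIP-seq) of the huntingtin protein (HTT) in mouse cortex with the anti-HTT antibody EPR5526. The design crossed 2 genotypes with an HTT-lowering treatment, and so asked where HTT-antibody signal lay in each genotype and how it differed when HTT was lowered. Of 8 samples, 4 were ChIP libraries with 1 peak list each, and the 4 input samples were not analysed here. Htt+/+ mice carried wild-type Htt, and HttQ111/+ mice carried 1 knock-in copy in which exon 1 is human with an expanded CAG tract; all were on the B6 background. Labels describe the mice as male and 4 months old. The ASO groups received 500 µg of a pan-huntingtin antisense oligonucleotide, an agent that directs the breakdown of Htt RNA of both alleles, in 1 lateral ventricle, and cortex of the injected side was collected after 4 weeks. The untreated groups received no injection and no control oligonucleotide, so that injection and HTT lowering cannot be told apart. The labels give cortex of 3 mice per ChIP and the study's methods give a smaller pool for the ASO cortices, so the pool size is uncertain. Each of the 4 groups held 1 library, so no difference between groups has a replicate check and no p-value is given. HTT amounts were not analysed here, and peak lists hold no expression values against which the tissue could be checked. In bulk cortex, a signal in fewer cells and a weaker signal per cell cannot be told apart.

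At a synapse, adhesion proteins such as neurexins on the axon and neuroligins on the dendrite bridge the cleft between neurons. Behind the dendritic membrane the DLG, DLGAP, SHANK and HOMER proteins form layers of a scaffold that holds glutamate receptors in place, and in the axon terminal vesicles loaded with transmitter dock at the active zone and fuse through the SNARE proteins when calcium enters. Many of these genes are among the longest of the genome and are transcribed from several start sites, and both length and number of start sites enter how many peaks a gene can hold.

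A peak is a stretch where the authors' peak caller found more ChIP reads than its control predicts, and its fold enrichment is the ratio of both at the peak's highest point, the summit. The 4 lists held 44664 peaks in untreated Htt+/+, 41323 in Htt+/+ ASO, 47957 in untreated HttQ111/+ and 40505 in HttQ111/+ ASO. Most peaks were low: 79.6% (Htt+/+ ASO) to 87.3% (HttQ111/+ ASO) had 2 to 4 ChIP reads at the summit, so recurrence in several libraries is given throughout. The HttQ111/+ ASO library stood apart: 7.89% of all protein-coding genes had a peak within 1 kb of a start site, against 17.9% in untreated Htt+/+, 20.4% in Htt+/+ ASO and 23.7% in untreated HttQ111/+, and the median GC content of its peaks was 48.1% against 51.7% to 53.3%. The main counts and ratios over the 46 genes are given also without it.

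The synaptic genes had a recurrent peak at a start site more often than protein-coding genes as a whole, with larger start windows and more GC around the 5′ end (median 57.1% against 51.1%), and held fewer peaks along their bodies than their length predicts. A start window was 1 kb on each side of the start of any annotated transcript, and a peak elsewhere between the gene's ends was counted as a gene-body peak. Of the 46 genes, 17 (37.0%, 95% Wilson interval 24.5% to 51.4%) had a start-site peak in 2 or more libraries, against 18.4% of all protein-coding genes. A start-site peak was present in any library at 35 genes (76.1%, against 43.3% of all genes) and in 3 or more libraries at 7 genes (15.2%, against 6.96%). A gene-body peak was present in 2 or more libraries in 34 genes (73.9%, against 37.6% of all genes), where 32.5 genes were expected for length. Only 4 of the 46 genes had no peak in any library (8.7%, against 28.4% of all genes): Vamp1, a vesicle SNARE protein, Syt3, a synaptotagmin, Lrrtm2, a postsynaptic adhesion protein, and Syn1, a synapsin of the vesicle surface. All intervals given here cover counting error only.

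Sites at which peaks of several libraries overlapped each other show most directly which DNA recurred. At start windows 9 genes (19.6%, against 13.6% of all genes) had 12 such sites, and in gene bodies 17 genes (37.0%, against 14.8%) had 30. These shares were not matched for length, and the synaptic genes had a median length of 81.7 kb against 15.4 kb. No number expected for length was computed for overlapping sites. Overlap of 3 libraries was found at 4 start-window sites, in Nlgn2, Dlgap3, Nrxn2 and Dlgap4, and overlap of all 4 libraries at 1 site, near the 3′ end of Nrxn2. The reference sequence under the shared part of these 5 sites is printed from mm9, because they are the start-window sites shared by the most libraries and the 1 site shared by all; the 3 body sites shared by 3 libraries are printed with their values further on. It is written 5′ to 3′ on the strand of the gene with each CG dinucleotide in capitals; the Nrxn2 late exon was added after its values were seen. The Nlgn2 stretch (chr11:69647562-69647791, minus strand) has 230 bases, of which 100% are coding, 72.2% GC and 27 CG dinucleotides. The Dlgap3 stretch (chr4:126872542-126872742, plus strand) has 201 bases, 100% coding, 61.2% GC and 4 CG dinucleotides. The early Nrxn2 stretch (chr19:6428061-6428294, plus strand) has 234 bases, 100% coding, 73.1% GC and 32 CG dinucleotides. The Dlgap4 stretch (chr2:156439791-156440030, plus strand) has 240 intronic bases, 78.3% GC and 30 CG dinucleotides. The late Nrxn2 stretch (chr19:6531677-6531916, plus strand) has 240 bases, 100% coding, 73.8% GC and 22 CG dinucleotides.
Nlgn2 exon: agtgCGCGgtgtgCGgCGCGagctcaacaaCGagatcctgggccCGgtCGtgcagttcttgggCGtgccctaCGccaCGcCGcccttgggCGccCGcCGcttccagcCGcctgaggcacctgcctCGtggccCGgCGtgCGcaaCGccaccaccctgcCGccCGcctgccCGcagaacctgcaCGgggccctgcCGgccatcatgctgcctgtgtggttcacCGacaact
Dlgap3 exon: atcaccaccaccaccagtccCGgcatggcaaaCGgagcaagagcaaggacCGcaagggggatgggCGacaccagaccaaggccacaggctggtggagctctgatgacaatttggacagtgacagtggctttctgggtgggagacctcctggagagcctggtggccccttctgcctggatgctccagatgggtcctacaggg
Nrxn2 early exon: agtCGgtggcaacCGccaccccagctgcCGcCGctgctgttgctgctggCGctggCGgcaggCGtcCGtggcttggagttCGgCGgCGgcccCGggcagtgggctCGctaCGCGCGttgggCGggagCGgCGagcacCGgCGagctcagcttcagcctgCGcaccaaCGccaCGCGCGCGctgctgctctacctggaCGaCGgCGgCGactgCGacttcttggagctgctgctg
Dlgap4 intron: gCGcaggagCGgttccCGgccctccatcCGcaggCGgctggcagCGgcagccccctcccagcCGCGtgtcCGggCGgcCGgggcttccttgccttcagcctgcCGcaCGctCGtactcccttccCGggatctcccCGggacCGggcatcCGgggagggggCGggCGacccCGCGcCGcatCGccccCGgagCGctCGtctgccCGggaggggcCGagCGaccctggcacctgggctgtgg
Nrxn2 late exon: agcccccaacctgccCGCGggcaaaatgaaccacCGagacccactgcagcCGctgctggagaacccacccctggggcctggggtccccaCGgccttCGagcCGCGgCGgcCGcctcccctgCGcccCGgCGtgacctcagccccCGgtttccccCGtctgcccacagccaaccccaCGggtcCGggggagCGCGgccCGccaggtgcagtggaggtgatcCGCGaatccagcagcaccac
Of these stretches, 4 are coding sequence inside a gene, and only the Dlgap4 stretch lies at the gene's own 5′ end. The capitals show that the Dlgap3 exon has the fewest CG dinucleotides of the 5.

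Among the adhesion genes, the neurexin gene Nrxn2, whose protein is a presynaptic partner of neuroligins, had a start-site peak in every library. Nrxn2 lies at chr19:6418731-6544169 on the plus strand, with 16 annotated start sites. Its untreated Htt+/+ library had 1 start-site peak of 9 reads, Htt+/+ ASO 1 of 9 reads, untreated HttQ111/+ 2 of 8 and 4 reads, and HttQ111/+ ASO 1 of 4 reads. The peaks of the first 3 libraries lay at the early coding exon printed above, 7.5% of the way along the gene, with fold enrichments of 4.29 in untreated Htt+/+, 4.07 in Htt+/+ ASO and 4.39 in untreated HttQ111/+. The HttQ111/+ ASO peak lay instead at another start site, 43.4% along the gene. At the late coding exon, 90.1% along Nrxn2, fold enrichment was 7.30 in untreated Htt+/+, 7.34 in Htt+/+ ASO, 6.03 in untreated HttQ111/+ and 6.25 in HttQ111/+ ASO, on 11, 12, 7 and 9 reads. This was the 1 site of the synaptic genes called in all 4 libraries. The annotated gene Gm14964 overlaps it, and signal of both genes cannot be told apart there.

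The neuroligin gene Nlgn2, whose protein organises inhibitory synapses, had 1 start-site peak in each of 3 libraries. The gene lies at chr11:69636624-69651286 on the minus strand, and its site was a coding exon 24.9% along the gene, 126 bases from an internal start site. Fold enrichment was 5.11 in untreated Htt+/+ (6 reads), 6.37 in Htt+/+ ASO (9 reads) and 8.20 in untreated HttQ111/+ (10 reads), and HttQ111/+ ASO had no peak. Nlgn1, a neuroligin of excitatory synapses, had by contrast 1 start-site peak, of 4 reads in HttQ111/+ ASO, and 6 body peaks where 47.2 were expected. Cadm1, a cell adhesion protein of the immunoglobulin family, had overlapping start-site peaks in the first intron in Htt+/+ ASO (fold enrichment 2.81, 11 reads) and untreated HttQ111/+ (4.25, 10 reads). Cdh2, which encodes N-cadherin, had 1 start-site peak in untreated Htt+/+ (6 reads) and 1 in untreated HttQ111/+ (5 reads), which did not overlap. Nrxn3 had 1, 2, 1 and 0 start-site peaks in untreated Htt+/+, Htt+/+ ASO, untreated HttQ111/+ and HttQ111/+ ASO, each of 3 reads and none overlapping. The adhesion genes with start-site peaks in 2 or more libraries were thus 5 of 10, of which 3 recurred at the same DNA.

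Of the 15 postsynaptic scaffold genes, 9 (60.0%, against 18.4% of all protein-coding genes) had a start-site peak in 2 or more libraries. Together the 15 genes had 33 of the 71 start-site peaks and 164.8 of the 309.7 kb of start windows. For window length their ratio of observed to expected peaks was 2.64 (exact Poisson interval 1.82 to 3.71), against 3.65 (2.16 to 5.77) for the adhesion genes. Against start windows of like GC content, as defined below, the ratios were 0.787 (0.542 to 1.11) for the scaffold genes and 0.918 (0.544 to 1.45) for the adhesion genes. The DLGAP proteins link DLG4, also called PSD-95, to the SHANK proteins, and all 4 of their genes were among the 9. Dlgap4, at chr2:156439441-156590099, had the most reads of any start-site peak: 13 in untreated Htt+/+, 17 in Htt+/+ ASO and 13 in untreated HttQ111/+, at 1 site in its first intron, with fold enrichments of 3.58, 4.69 and 3.66. Untreated HttQ111/+ had 2 further Dlgap4 start-site peaks of 6 and 3 reads, and HttQ111/+ ASO had none. Dlgap3, at chr4:126846448-126914266, had peaks at an internal coding exon 38.6% along the gene, with fold enrichments of 4.58 in untreated Htt+/+, 4.82 in Htt+/+ ASO and 7.79 in untreated HttQ111/+, on 6, 6 and 8 reads. A second Dlgap3 site, in the first intron, had fold enrichments of 2.69 in Htt+/+ ASO (6 reads) and 6.28 in untreated HttQ111/+ (13 reads). Dlgap2 had 1 start-site peak in untreated Htt+/+ (3 reads) and 2 in Htt+/+ ASO (12 and 3 reads), and Dlgap1 had 1 in Htt+/+ ASO (3 reads) and 1 in untreated HttQ111/+ (7 reads); neither gene had overlapping ones.

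Shank3, a master scaffold of excitatory synapses, had 1, 2, 1 and 0 start-site peaks in untreated Htt+/+, Htt+/+ ASO, untreated HttQ111/+ and HttQ111/+ ASO. They fell at 2 sites near the 5′ end. The upstream one was called in Htt+/+ ASO (fold enrichment 7.16, 8 reads) and untreated HttQ111/+ (6.85, 7 reads), and the one inside the gene in untreated Htt+/+ (6.36, 8 reads) and Htt+/+ ASO (4.82, 6 reads). Shank3 therefore had a called peak near its 5′ end in all libraries but HttQ111/+ ASO, and only Htt+/+ ASO had a peak called at both sites. Homer2, which joins SHANK proteins to metabotropic glutamate receptors, had overlapping peaks in untreated Htt+/+ (7.15, 7 reads) and untreated HttQ111/+ (3.92, 8 reads). Homer3 had peaks of 6 reads in untreated Htt+/+ and 3 reads in Htt+/+ ASO at different start sites, and Homer1 had a single peak of 13 reads in untreated HttQ111/+. Dlg4 had 1 peak in untreated Htt+/+ (3 reads) and 2 in Htt+/+ ASO (8 and 6 reads), at 3 separate places. Dlg1 had 2 peaks in untreated Htt+/+ (3 reads each) and 1 in untreated HttQ111/+ (5 reads), also apart from each other. The calcium and calmodulin dependent kinase gene Camk2b had no start-site peak, and Camk2a had 1 of 4 reads, in HttQ111/+ ASO.

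Among genes of the axon terminal, none of the 10 vesicle genes, 1 of the 6 fusion genes and 2 of the 5 active zone genes had a start-site peak in 2 or more libraries, beside 18.4% of all protein-coding genes. For window length their ratios of observed to expected peaks were 2.08 (0.765 to 4.53) in vesicle genes, 4.04 (1.48 to 8.80) in fusion genes and 4.71 (2.03 to 9.28) in active zone genes. The intervals of all 5 roles overlapped each other, also without HttQ111/+ ASO and against start windows of like GC content. Of the vesicle genes, 6 had a start-site peak in 1 library: Rab3a, a vesicle GTPase, in untreated Htt+/+, Syp (synaptophysin) in HttQ111/+ ASO, and Sv2a, Syn2, Syn3 and Syt1, the calcium sensor of fast release, in Htt+/+ ASO, with 2 to 6 reads each. Cplx2, a complexin that binds the SNARE complex, had overlapping peaks in Htt+/+ ASO (fold enrichment 3.10, 8 reads) and untreated HttQ111/+ (5.48, 8 reads). Of the SNARE genes, Snap25 (3 reads) and Vamp2 (9 reads) had a peak in untreated HttQ111/+ alone and Stx1a (8 reads) in Htt+/+ ASO alone. Rims2, an active zone organiser, had non-overlapping peaks of 6 reads each in untreated Htt+/+ and Htt+/+ ASO at its 5′ end.

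Bsn, which encodes the large active zone scaffold bassoon, was the other gene with a start-site peak in every library, but the 2 genotypes differed in place. In Htt+/+ the peak lay at the 5′ end, with fold enrichments of 4.05 untreated (7 reads) and 3.84 with ASO (10 reads). In HttQ111/+ it lay at a coding exon 83.9% along the gene, beside the start of an internal transcript, with 3.43 untreated (8 reads) and 2.52 with ASO (10 reads). The late part of Bsn also held a gene-body site at chr9:108014907-108015786, called in untreated Htt+/+ (2.73, 3 reads), untreated HttQ111/+ (6.65, 7 reads) and HttQ111/+ ASO (3.60, 6 reads). The gene F630040L22Rik overlaps the late sites. With 1 library per genotype and treatment, the difference in place was not tested.

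**Figure D1:**
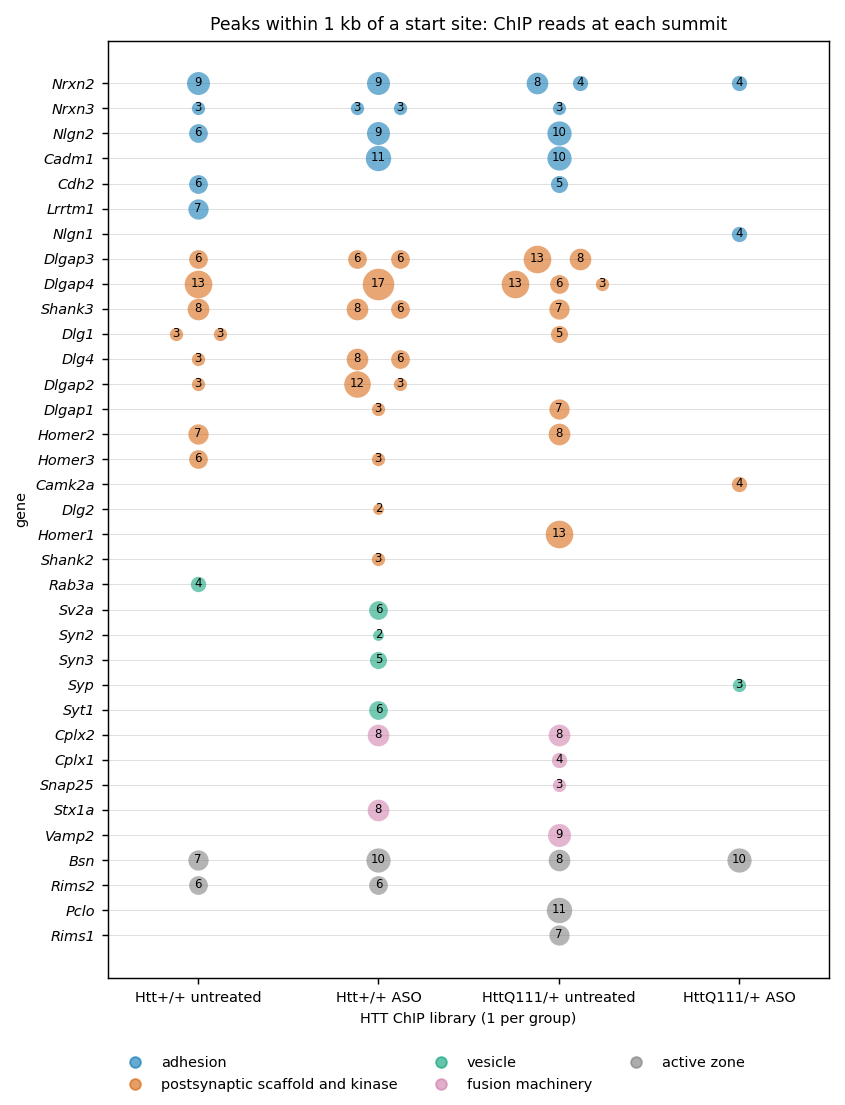
Each circle is 1 peak within 1 kb of a start site of the gene named on the left, in the library named below, with its area and its printed number giving the ChIP reads at the summit and its colour the role of the gene; the 11 genes with no start-site peak are left out. Nrxn2 and Bsn have a circle in all 4 libraries, and the HttQ111/+ ASO column holds 5 circles.

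Which genes lacked a recurrent start-site peak went with the size of their start windows. Genes with many start sites have a wider window, and the synaptic genes had a median of 5 start sites against 2 for all protein-coding genes. With windows under 3 kb, 1 of 12 synaptic genes (8.33%) had a start-site peak in 2 or more libraries, against 12.1% of all genes with such windows. With 3 to 6 kb it was 4 of 12 (33.3%, against 20.7%), with 6 to 10 kb 5 of 13 (38.5%, against 33.1%), and over 10 kb 7 of 9 (77.8%, against 51.3%). At each of these 4 sizes the Wilson interval of the synaptic genes included the share of all genes. When the window of a gene was limited to 1 kb around its 5′ end, 8 synaptic genes (17.4%) qualified, against 12.9% of all genes. Of the 71 start-site peaks, 36 lay within 1 kb of the gene's 5′ end and 35 only at internal start sites.

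The share also went with base composition. A start was called CpG-rich when the 2 kb around the gene's 5′ end held at least 50% GC and an observed to expected CpG ratio of at least 0.6, as many promoters of active genes do. Such starts were found in 20 synaptic genes (43.5%, against 29.7% of all genes), and 12 of the 20 (60.0%, interval 38.7% to 78.1%) had a start-site peak in 2 or more libraries, against 34.3% of all genes with such a start. Of the other 26 synaptic genes, 5 did (19.2%, against 11.7%). The class was set at the gene's 5′ end only, while peaks at any annotated start were counted. Of the 71 start-site peaks, 35 lay only at internal start sites. These shares were also not matched for the size of the start windows, so they do not compare starts of like composition and size. The DNA under the start-site peaks had a median GC content of 69.3%, against 51.2% for the gene-body peaks of the same genes, and the 12 sites shared between libraries lay between 62.6% and 78.5%. In the 500 bases around the 5′ end, the letters GGGCGG, known as a GC box, occurred on either strand in 80.4% of the synaptic genes and 52.6% of all genes, TGACG, part of the cAMP response element, in 37.0% and 32.8%, CCAAT in 32.6% and 48.0%, and CAGCAG, a pair of CAG units, in 43.5% and 49.7%. None of these motifs contains another, and a match is a description of the sequence only.

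Counted against window length, the start windows held more peaks than the genome as a whole in 3 of the 4 libraries. The expected number is the library's peak number per assembled base times the length of the windows. Untreated Htt+/+ had 17 start-site peaks against 6.0 expected (ratio 2.83, exact Poisson interval 1.65 to 4.54), Htt+/+ ASO 26 against 5.52 (4.71, 3.08 to 6.90), untreated HttQ111/+ 23 against 6.41 (3.59, 2.28 to 5.39) and HttQ111/+ ASO 5 against 5.57 (0.897, 0.291 to 2.09). The same ratios over all protein-coding genes were 2.78, 3.41, 3.55 and 1.27, each inside the interval of the synaptic genes. Together the 4 libraries gave 71 against 23.5 (3.02, 2.36 to 3.81), and without HttQ111/+ ASO 66 against 17.9 (3.68). Measured against the start windows of all protein-coding genes the ratio was 1.09, and against those of like GC content (all genes ranked by GC content and split into 10 equal groups) 0.852 (0.666 to 1.08), with 83.3 expected, or 0.873 (0.675 to 1.11) without HttQ111/+ ASO. The start windows thus held more peaks than the genome as a whole, while the interval of the ratio to start windows of like GC content included 1. The start-site peaks also had more reads than the gene-body peaks of the same genes, with a median of 6 against 3. At least 5 reads were found in 48 of 71 (67.6%), against 90 of 557 (16.2%) in gene bodies. Their median fold enrichment was not higher, at 4.58 against 4.64 in gene bodies.

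**Figure D2:**
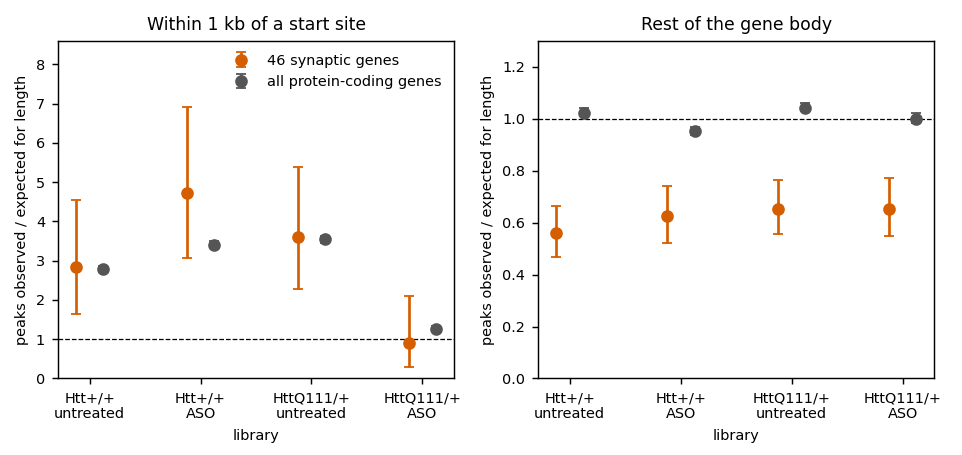
Peaks observed over peaks expected for length in each library (linear axis, dashed line at 1), for the 46 synaptic genes and for all protein-coding genes, within 1 kb of a start site (left) and in the rest of the gene body (right); bars are 95% exact Poisson intervals. At start sites the synaptic genes and all genes overlap in each library, from 4.71 in Htt+/+ ASO to 0.897 in HttQ111/+ ASO, and in gene bodies the synaptic genes lie at 0.558 to 0.653, below all genes.

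Along gene bodies the synaptic genes held fewer peaks than their length predicts, in every library. There were 128 peaks against 229 expected in untreated Htt+/+ (ratio 0.558, 0.466 to 0.664), 132 against 212 in Htt+/+ ASO (0.624, 0.522 to 0.740), 161 against 247 in untreated HttQ111/+ (0.653, 0.556 to 0.762) and 136 against 208 in HttQ111/+ ASO (0.653, 0.548 to 0.772). Over all protein-coding genes the ratios were 1.02, 0.953, 1.04 and 0.999. The share of synaptic genes with a body peak was nevertheless 71.7%, 67.4%, 67.4% and 63.0%, against 33.4%, 30.4%, 34.9% and 30.2% of all genes, as the synaptic genes had a median length of 81.7 kb against 15.4 kb. All 4 libraries together gave 557 against 896 (0.622, 0.571 to 0.676), and without HttQ111/+ ASO 421 against 688 (0.612).

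The deficit was found in the longest genes. The 13 synaptic genes over 300 kb had 373 body peaks against 753 expected (ratio 0.495, 0.446 to 0.548, and 0.481 without HttQ111/+ ASO), and all genes of that length had a ratio of 0.700. The 8 genes of 100 to 300 kb had 87 against 86.3, the 15 genes of 20 to 100 kb had 89 against 51.0 (1.75, 1.40 to 2.15) and the 10 genes under 20 kb had 8 against 5.44. Base composition ordered the genes in the same way. With a body GC content under 40%, 11 synaptic genes had 174 peaks against 587 expected (0.297, against 0.397 for all genes, and 0.278 without HttQ111/+ ASO), and with 50% or more, 17 genes had 110 against 50.1 (2.20, against 2.07, and 2.37 without HttQ111/+ ASO). Against gene bodies of like GC content, in 10 groups, 631 peaks were expected and the ratio was 0.883 (0.811 to 0.960), or 0.886 (0.803 to 0.975) without HttQ111/+ ASO.

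**Figure D3:**
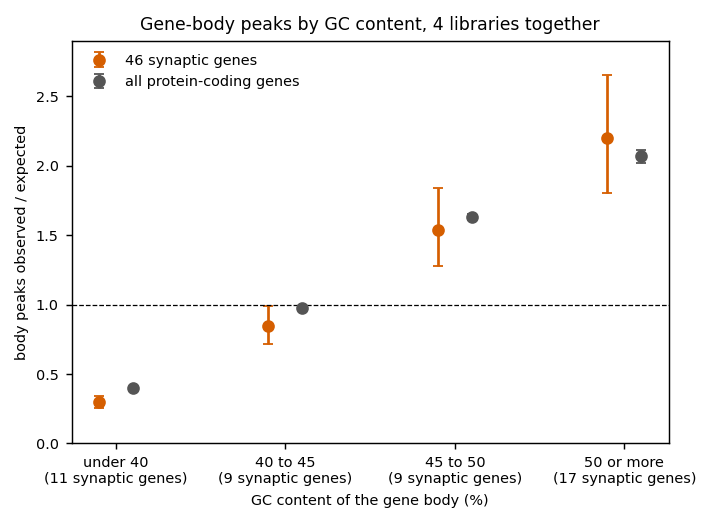
Gene-body peaks observed over expected for length (linear axis, dashed line at 1) for 4 classes of GC content of the gene body, all 4 libraries together, with 95% exact Poisson intervals. The ratio of the 46 synaptic genes rises from 0.297 to 2.20 across the classes and that of all protein-coding genes from 0.397 to 2.07.

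By the number of peaks observed minus expected for length, the genes furthest below expectation were Cntnap2, a neurexin-like protein, Dlg2, a paralog of PSD-95, and Nrxn3. Cntnap2 (chr6:45010060-47251368, 2241.3 kb, body GC content 37.8%) had 6, 11, 15 and 8 body peaks in untreated Htt+/+, Htt+/+ ASO, untreated HttQ111/+ and HttQ111/+ ASO, together 40 against 151 expected. Dlg2 (chr7:97650473-99595513, 38.2% GC) had 10, 11, 4 and 10, together 35 against 129 expected. Nrxn3 (chr12:89961320-91573375, 39.2% GC) had 7, 10, 9 and 15, together 41 against 108 expected. All 3 have a body GC content under 40%. Against gene bodies of like GC content the expected numbers were 45.1 for Cntnap2, 38.8 for Dlg2 and 54.1 for Nrxn3, so that Cntnap2 and Dlg2 came close to expectation (ratios 0.886 and 0.902) and Nrxn3 stayed at 0.757.

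By the same difference, the genes furthest above expectation were Shank2, Dlgap4 and Bsn, with a body GC content of 49.3% to 51.2%. By the ratio of observed to expected, Homer3 (9.34, on 2 peaks), Shank1 (4.30) and Sv2a (4.01, on 3 peaks) led instead, and the lowest ratios among genes with a body peak were those of Nlgn1 (0.127), Homer1 (0.158) and Syt1 (0.204). Shank2 (422.6 kb, body GC content 49.3%) had 17, 6, 20 and 10 body peaks in untreated Htt+/+, Htt+/+ ASO, untreated HttQ111/+ and HttQ111/+ ASO, together 53 against 27.9 expected. Dlgap4 (51.2% GC) had 10, 3, 5 and 3, together 21 against 9.04, and Bsn (50.3% GC) had 4, 6, 3 and 2, together 15 against 6.14. Dlgap2 had the most body peaks of any synaptic gene, 14, 15, 16 and 13, together 58 against 49.8 expected. Shank1 (52.7% GC) had 1, 1, 8 and 1, together 11 against 2.56, most of them in untreated HttQ111/+. Syt2 likewise had its 5 body peaks in untreated HttQ111/+ alone. Against gene bodies of like GC content, 50.4 peaks were expected for Shank2 (ratio 1.05), 17.2 for Dlgap4 (1.22), 11.6 for Bsn (1.3), 6.57 for Shank1 (1.67) and 72.4 for Dlgap2 (0.801). Shank2 thus came close to expectation, and the ratio of Dlgap2 went from 1.16 to 0.801. No interval was computed for single genes.

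The other genes with recurring body sites fell on both sides of expectation, with counts given in the same order of libraries. Dlgap1 had 7, 13, 8 and 12 body peaks, together 40 against 56.7 expected, and Nrxn2 had 2, 2, 5 and 6, together 15 against 7.34. The synapsin genes differed in size: Syn3 had 6, 9, 13 and 10 body peaks (38 against 29.5) and Syn2 had 2, 1, 3 and 4 (10 against 9.74). Syt7, a synaptotagmin of slow release, had 6, 1, 3 and 0 (10 against 4.23). Unc13a had 1, 4, 1 and 1 (7 against 2.96), Camk2b had 3, 1, 4 and 1 (9 against 6.09), Pclo had 2, 3, 2 and 3 (10 against 23.4) and Homer3 had 1, 0, 1 and 0 (2 against 0.214). Homer3 is short and mostly covered by its start windows, which leaves little body to hold a peak. Among the genes without recurring body sites, Syt1 had 7 body peaks against 34.3 expected, or 17.2 at like GC content, and Homer1 had 1 against 6.34.

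Across treatments, single genes went both ways. Of the 38 genes with a body peak, 6 (15.8%) had more body peaks in both ASO than in both untreated libraries, against 6.22% of all protein-coding genes with a body peak: Cdh2, Dlgap1, Nrxn3, Pclo, Rims2 and Stx1a. In 7 (18.4%, against 11.8%) both ASO libraries had fewer: Camk2b, Dlgap4, Homer2, Homer3, Shank2, Shank3 and Syt7. To qualify, a gene needs a body peak in both ASO or in both untreated libraries. These shares were not matched for length or for the number of body peaks. The 46 genes had a median length of 81.7 kb against 15.4 kb for all protein-coding genes, so the shares do not compare genes of like length. The counts differ by as little as 1 peak, and no gene's difference could be tested.

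**Figure D4:**
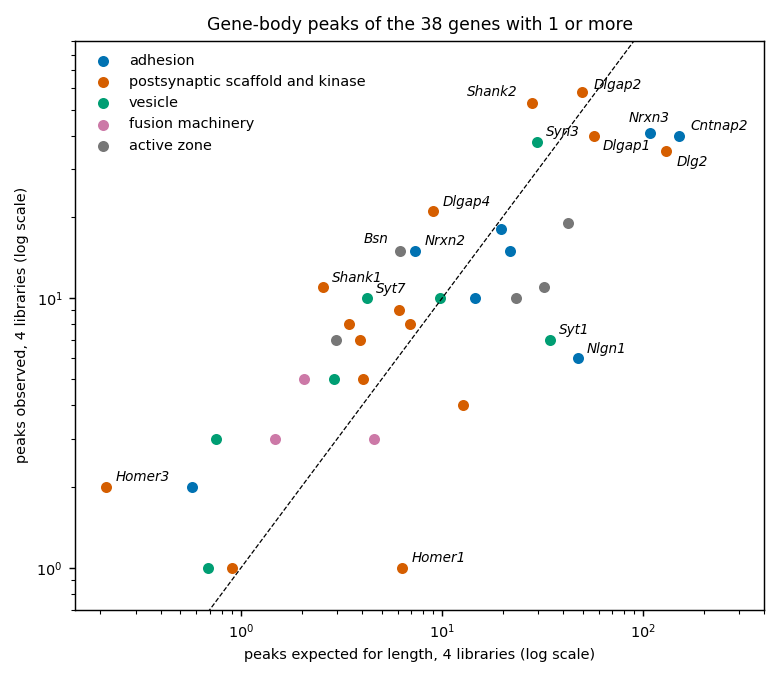
Gene-body peaks observed in the 4 libraries together against the number expected for length, on log axes, for the 38 synaptic genes with at least 1 body peak; colours give the role and the dashed line marks equality. Cntnap2, Dlg2 and Nrxn3 lie to the right of the line at 35 to 41 peaks, and Shank2, Dlgap4, Bsn and Shank1 to its left.

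By role, the adhesion genes had 147 body peaks against 371 expected (0.396, 0.335 to 0.466), the scaffold genes 263 against 320 (0.822, 0.725 to 0.927), the vesicle genes 74 against 87.1 (0.849, 0.667 to 1.07), the fusion genes 11 against 10.7 (1.03, 0.512 to 1.83) and the active zone genes 62 against 107 (0.579, 0.444 to 0.743). The intervals of the adhesion and scaffold genes did not overlap for length alone, and Cntnap2 and Nrxn3 made up most of the expected number of the adhesion genes. Against bodies of like GC content they did overlap, with 0.788 (0.666 to 0.927) for adhesion and 0.935 (0.826 to 1.06) for scaffold genes, and the active zone genes moved to 1.09 (0.835 to 1.40). Without HttQ111/+ ASO the ratios for length were 0.355 for adhesion, 0.847 for scaffold, 0.852 for vesicle, 0.850 for fusion and 0.584 for active zone genes.

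Body peaks fell in coding exons more often than the length of these exons predicts. Of 557 body peaks, 51 (9.16%, Wilson interval 7.03% to 11.8%) had their summit in a coding exon, while coding exons made up 0.921% of the body bases, a ratio of 9.95, and 11.6 without HttQ111/+ ASO. Over all protein-coding genes it was 11.3% of peaks in 2.95% of bases, a ratio of 3.83. By library the share was 8.59% in untreated Htt+/+, 10.6% in Htt+/+ ASO, 12.4% in untreated HttQ111/+ and 4.41% in HttQ111/+ ASO. The share was not tested at matched GC content. When each gene was divided into 3 equal parts from 5′ to 3′, 30.3%, 26.8% and 42.9% of the body peaks lay in them in turn, against 29.0%, 33.1% and 37.8% over all genes.

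Of the 30 body sites with overlapping peaks, 8 lay in coding exons, 21 in introns and 1 in an untranslated region, and 12 included HttQ111/+ ASO. Beside the sites in Nrxn2 and Bsn, 2 were called in 3 libraries. Shank1 (chr7:51581392-51581678, coding exon) had fold enrichments of 4.71 in Htt+/+ ASO (6 reads), 4.58 in untreated HttQ111/+ (4 reads) and 3.40 in HttQ111/+ ASO (6 reads). Dlgap1 (chr17:71167318-71167868, across the end of the coding sequence and the untranslated region after it) had 2.45 in untreated Htt+/+ (5 reads), 4.36 in Htt+/+ ASO (7 reads) and 4.57 in untreated HttQ111/+ (8 reads). The Shank1 site had no peak in untreated Htt+/+, and the Dlgap1 site none in HttQ111/+ ASO. The shared part of these sites and of the late Bsn site is printed on the gene's strand with CG in capitals, chosen after their values were seen. The Shank1 stretch (chr7:51581449-51581658, plus strand, 210 bases, 67.6% GC, 10 CG dinucleotides), the Bsn stretch (chr9:108015369-108015569, minus strand, 201 bases, 61.7% GC, 5 CG dinucleotides) and the Dlgap1 stretch (chr17:71167392-71167571, plus strand, 180 bases, 72.8% GC, 27 CG dinucleotides) lay in coding sequence, the Shank1 stretch at 99% of its bases and the others in full.
Shank1 exon: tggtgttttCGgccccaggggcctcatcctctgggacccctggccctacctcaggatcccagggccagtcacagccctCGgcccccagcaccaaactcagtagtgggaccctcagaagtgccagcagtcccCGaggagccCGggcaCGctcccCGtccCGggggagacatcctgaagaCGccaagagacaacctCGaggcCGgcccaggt
Bsn late exon: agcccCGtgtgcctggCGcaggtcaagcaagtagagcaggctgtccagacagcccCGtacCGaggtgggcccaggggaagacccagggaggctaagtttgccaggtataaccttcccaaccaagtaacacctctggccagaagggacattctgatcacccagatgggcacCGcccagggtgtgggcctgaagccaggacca
Dlgap1 last coding stretch: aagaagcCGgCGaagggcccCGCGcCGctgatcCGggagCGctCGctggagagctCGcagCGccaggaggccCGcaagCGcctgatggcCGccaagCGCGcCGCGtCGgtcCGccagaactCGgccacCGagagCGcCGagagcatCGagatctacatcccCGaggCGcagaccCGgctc

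The other 26 body sites were each called in 2 libraries and lay in 15 genes. Shank2 had 5 of them, all intronic, with fold enrichments of 5.31 and 5.67 in the untreated libraries of both genotypes at the one nearest the middle of the gene. Coding-exon sites were found in Syn2, a synapsin (4.72 in untreated Htt+/+ and 4.71 in Htt+/+ ASO), in Pclo, which encodes piccolo (5.33 in untreated Htt+/+ and 4.07 in untreated HttQ111/+), in Unc13a, a vesicle priming factor (3.07 in Htt+/+ ASO and 3.47 in untreated HttQ111/+), in Homer3 (2.95 in untreated Htt+/+ and 2.50 in untreated HttQ111/+, where Ddx49 overlaps), and once more in Shank1 (3.70 in untreated Htt+/+ and 5.91 in untreated HttQ111/+). Intronic sites were found in Nrxn3 (3), Cntnap2, Dlg2, Dlgap4 and Syt7 (2 each), and Camk2b, Dlgap1, Dlgap2, Syn3 and Unc13a (1 each), on 2 to 8 reads per peak.

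**Figure D5:**
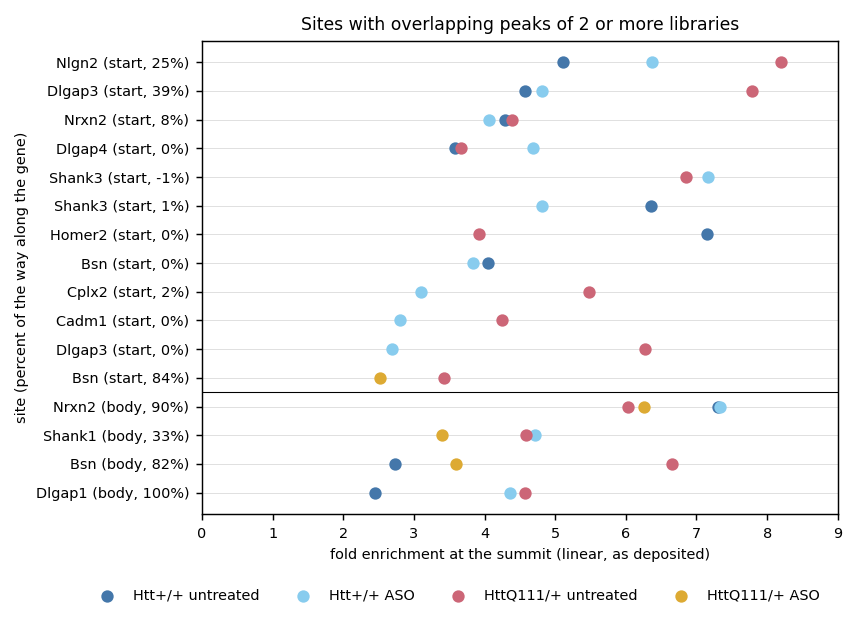
Fold enrichment at the summit (linear axis) for the 12 start-window sites with overlapping peaks of 2 or more libraries (above the line) and the 4 gene-body sites shared by 3 or more (below it); each dot is a library, and a missing dot means that no peak was called there. The Nrxn2 body site has 4 dots between 6.03 and 7.34, and HttQ111/+ ASO has a dot at 1 of the 12 start-window sites.

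Between libraries, the ratios of start-site and of body peaks differed most in comparisons with HttQ111/+ ASO. This held for the synaptic genes and for all protein-coding genes. With ASO the number of start-site peaks went from 17 to 26 in Htt+/+ (ratio 1.53, Wilson interval 0.838 to 2.79) and from 23 to 5 in HttQ111/+ (0.217, 0.0855 to 0.553). The corresponding ratios over all protein-coding genes were 1.13 and 0.310, so the synaptic genes followed all genes within their intervals in both genotypes. HttQ111/+ relative to Htt+/+ gave 1.35 in untreated cortex (0.730 to 2.51, against 1.37 over all genes) and 0.192 with ASO (0.0763 to 0.484, against 0.375). The 5 start-site peaks of HttQ111/+ ASO belonged to Nrxn2, Bsn, Nlgn1, Camk2a and Syp, and 1 of them had 5 or more reads, against 18 of 23 in untreated HttQ111/+. The lower GC content of all peaks of this library moved with the loss, and its part in it was not tested.

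Body peak numbers were closer to each other. Their ASO to untreated ratio was 1.03 in Htt+/+ (0.809 to 1.31, against 0.860 over all genes) and 0.845 in HttQ111/+ (0.673 to 1.06, against 0.809), and HttQ111/+ relative to Htt+/+ gave 1.26 untreated (0.998 to 1.59, against 1.1) and 1.03 with ASO (0.811 to 1.31, against 1.03). All 4 intervals included 1, and a difference within them was not detectable at this depth.

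Other genes of the synapse were read in the same way. Of 69 other synaptic gene models (further adhesion, scaffold, vesicle and active zone genes), 10 (14.5%) had a start-site peak and 48 (69.6%) a body peak in 2 or more libraries. Their start windows held 55 peaks against 26.8 expected (2.05, 1.55 to 2.67, and 2.30 without HttQ111/+ ASO) and their bodies 488 against 870 (0.561, 0.513 to 0.613). Of 45 glutamate and GABA receptor genes, 12 (26.7%) had a start-site peak in 2 or more libraries, with a start ratio of 3.20 (2.34 to 4.28, and 4.10 without HttQ111/+ ASO) and a body ratio of 0.617 (0.559 to 0.680). Body ratios below 1 were thus shared by the 3 groups of synaptic genes. The start-site share was highest in the 46 genes (Wilson intervals 24.5% to 51.4%, against 8.07% to 24.7% for the other synaptic genes and 16.0% to 41.0% for the receptors), and the intervals overlapped. The groups differed in start windows, with 309.7 kb in the 46 genes, 351.5 kb in the 69 and 185.9 kb in the 45. For window length the receptors had the highest ratio, 3.20 against 3.02 (2.36 to 3.81) in the 46 genes, and these intervals overlapped too.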

How the data were processed

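HTT ChIP-seq peak lists of 4 cortex libraries were analysed. The authors demultiplexed reads with bcl2fastq 2.17 and aligned them with HISAT2. By the study's methods, the ChIP libraries were down-sampled to equal size, and peaks of each were called with MACS2 against a single control made of all inputs. The deposited files give a fold enrichment (a ratio at the summit), −log10 values of the p-value and the q-value, a whole-number score and a summit offset per peak. The lowest −log10 p-value of a library was 3.00 to 3.02, and 30007 (HttQ111/+ ASO) to 42246 (untreated HttQ111/+) peaks had q below 0.01. All deposited peaks were counted here. For its cortex peak set the study kept only peaks found in at least 2 samples at an FDR below 0.01, which is stricter. The labels name mm9 and the methods mm10. Of 6988 peaks of 8 or more reads, 62.0% lay no more than 1 kb from a protein-coding gene's end in mm9 and 7.67% with GRCm38 positions, and 0 peaks passed an mm9 chromosome end, so mm9 was used with GENCODE vM1. An ENCODE blacklist was not used here.

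From the deposited fold enrichment and p-value, whole ChIP reads at each summit were recovered with 1 scale factor per library, which gave the deposited −log10 p-value to within 0.01 for at least 99.993% of peaks. Depth behind a peak is therefore given in reads. Genome-wide, the recovered depth was 1.12 reads per kb in untreated Htt+/+, 1.22 in Htt+/+ ASO, 1.10 in untreated HttQ111/+ and 1.36 in HttQ111/+ ASO. It thus differed between libraries, although the methods describe equal sizes. Peaks were assigned by an overlap of at least 1 base, and a peak in a start window was not counted again in the body. Expected numbers used each library's peaks per base over 2558509480 assembled bases, and genes of like GC content were those of the same of 10 equal groups of all protein-coding genes. Shares and ratios of 2 counts carry 95% Wilson intervals and counts against expectation exact Poisson intervals. Named were all genes with a start-site peak in 2 or more libraries or with overlapping body peaks, the 3 with the most body peaks, the 3 furthest above and the 3 furthest below expectation, and those with no peak; other genes were named after their values were seen. The genes, lists and rules were chosen with earlier results of these data known. The steps were tested on simulated data. Tools were scipy 1.17.1, pandas 2.3.3, numpy 2.4.6, pysam 0.24.0, matplotlib 3.10.9 and samtools 1.23.1, under Python 3.11.15.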

Additional observations from a re-analysis of the deposited data

Results flagged for a closer look

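The ASO to untreated ratio of the start-site peaks of the 46 genes was 1.53 in Htt+/+ and 0.217 in HttQ111/+, in opposite directions, and HttQ111/+ relative to Htt+/+ was 1.35 in untreated cortex and 0.192 with ASO. The body peaks had ASO to untreated ratios of 1.03 in Htt+/+ and 0.845 in HttQ111/+. These were noted because the 2 genotypes, or the 2 treatments, moved in opposite directions. Of these ratios, only 0.217 and 0.192 had intervals that left out 1. With start windows of 3 kb on each side, the Htt+/+ ratio of 1.53 became 1.03 (32 peaks against 31). With 1 library per group the differences between genotypes or treatments were not tested. The start-site values of 0.217 and 0.192 rest on the HttQ111/+ ASO library, in which all protein-coding genes also had fewer start-site peaks.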

How the results depend on the processing

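The 9 main results were recomputed under 79 alternatives: 58 kept their direction and stayed within the 95% counting interval of the reported value (for counts of genes, within 1.5 times), which is wide for small counts, 19 moved further and 2 reversed. The number of genes with a start-site peak in 2 or more libraries, 17, became 11 with peaks of 5 or more reads, 8 at the gene 5′ end only, 7 in 3 or more libraries, 9 with overlapping peaks, and 10 to 17 when 1 library was left out (10 without either Htt+/+ library, 11 without untreated HttQ111/+, 17 without HttQ111/+ ASO). Its excess in percentage points over all genes, 18.5, became 4.45 at the gene 5′ end only, 8.26 in 3 or more libraries, 11.4 with 5 or more reads and 9.35 to 20.7 when 1 library was left out. The number of genes with body peaks, 34, became 17 with 5 or more reads, 17 with overlapping peaks and 29 to 32 when 1 library was left out. With q below 0.01, the values 17, 18.5 and 34 became 14, 14.4 and 32. The start-site ratio to expectation, 3.02, became 4.07 with 500 bases, 1.95 with 3 kb, 11.9 with 5 or more reads, 5.09 at the 5′ end only, 1.09 against start windows of all genes, and reversed to 0.852 against those of like GC content (0.873 without HttQ111/+ ASO). Without HttQ111/+ ASO it was 3.68. The values 4.07, 1.95, 11.9 and 5.09 are ratios to the genome as a whole. None was set beside all protein-coding genes, so they do not compare the synaptic genes with other genes. The body ratio, 0.622, became 0.883 against bodies of like GC content (0.886 without HttQ111/+ ASO) and 0.612 without HttQ111/+ ASO. With 5 or more reads, the HttQ111/+ ASO to untreated ratio and the HttQ111/+ to Htt+/+ ratio with ASO were each 0.0556 (1 peak against 18). With 3 kb they were 0.316 and 0.375. The Htt+/+ ASO to untreated ratio, 1.53, became 1.03 with 3 kb and 1.25 with q below 0.01. It was 1.64 with 5 or more reads and 1.86 at the gene 5′ end only. The GC alternatives and the ratios without HttQ111/+ ASO were chosen after seeing the data. No paired analysis was possible because each group held 1 library and no result came from a test.

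With 2 to 4 reads under most peaks, absence of a peak in a library does not show absence of signal, and depth limits every comparison of single genes. Causes of the moves were not tested.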
